A study of Rattus norvegicus with 9 samples.

Results

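The transcripts described here are mitochondrial transfer RNAs of the rat cerebral cortex. They were chosen by name: the study's supplementary lists of differentially expressed genes and transcripts pair 6 Ensembl gene identifiers with the name mitochondrial tRNA, out of 29516 identifiers in the count files. The values that chose them were differences between 6 and 12 months of age, at the gene level for ENSRNOG00000029677 and ENSRNOG00000032609, at the transcript level for ENSRNOG00000029145, and at both levels for ENSRNOG00000029070, ENSRNOG00000029389 and ENSRNOG00000032112. ENSRNOG00000029145 is called a known mitochondrial tRNA there and the other 5 are not. The lists do not give the amino acid that each tRNA carries, and the position, length and sequence of the 6 were not analysed here.

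Mitochondrial tRNAs are encoded in the mitochondrial genome and carry amino acids to the mitochondrial ribosome, which makes core subunits of the respiratory chain and ATP synthase. Long precursor RNAs are transcribed from both strands of that genome, and tRNAs lie between many of the mRNA and ribosomal RNA sequences. Cutting at the ends of the tRNAs releases the flanking RNAs, after which the tRNAs receive a CCA tail and are charged. The cortex depends heavily on oxidative phosphorylation, which supplies most of the ATP that neurons use.

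All libraries came from the cerebral cortex of male BN rats (BN/SsNOlaHSD) that ate ad libitum, and the labels name no treatment. They were killed at 6, 12 or 28 months, which the labels call young, middle age and old. RNA of 2 rats was pooled for each library, so the spread between rats within a pool cannot be seen. The labels give 3 libraries per age, but the file of 6 months sample 2 and that of 12 months sample 3 held the same count in every row, which leaves 8 distinct libraries in 9 files. That library, called the shared library here, could not be given an age and was left out of the comparisons, so that 7 libraries remained: 2 at 6 months (samples 1 and 3), 2 at 12 months (samples 1 and 2) and 3 at 28 months. Its values are given separately.

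RNA was extracted with the RNeasy lipid tissue kit, depleted of ribosomal RNA, fragmented, size selected and sequenced on the SOLiD platform. How much of the tRNA each library kept through these steps is not known. The reads on genes numbered from 6513376 to 9196951 in a library. Of these, 1457 to 8965 fell on the 6 tRNAs, which is 0.0202% to 0.0975% of the gene reads, and each tRNA had at least 54 reads in every library. A single identifier, ENSRNOG00000043866, took 44.0% to 52.4% of the gene reads. In bulk tissue, fewer cells of a type and less RNA per cell cannot be told apart. Reads of a mature tRNA and reads of an uncut precursor cannot be told apart in these counts either. Of 26 cell type markers listed, only 4 could be matched to an identifier, through lists selected on these samples. Gfap, an astrocyte gene, ranged from 52.4 to 155 normalized counts over the 8 libraries, Aif1 and Cd74, which mark microglia, from 2.49 to 8.98 and from 5.04 to 35.9, and the globin gene LOC689064 from 17.2 to 64.8. Gfap was at 72.4 and 89.1 in the 6-month libraries, 155 and 145 in the 12-month libraries and 52.4 to 76.99 in the 28-month libraries. In the same order, Cd74 was at 5.12 and 5.04, at 28.4 and 35.9, and at 6.98 to 12.9. Aif1 was at 5.66 and 5.15, at 8.98 and 8.80, and at 2.49 to 3.46. Between 6 and 28 months Aif1 and Cd74 thus went opposite ways. LOC689064 was at 31.4 and 22.9, at 50.5 and 33.4, and at 17.2 to 29.0. The shared library was at 151 for Gfap, 23.3 for Cd74, 4.89 for Aif1 and 64.8 for LOC689064. The part of these 4 genes in the tRNA differences was not tested. No neuronal or oligodendrocyte marker could be matched.

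Normalized counts, that is, CPM of the reads on genes after TMM scaling of the library sizes, put all 6 tRNAs highest in 1 of the 6-month libraries. The lowest was 12 months sample 1 for 5 of them, and 28 months sample 2 for ENSRNOG00000029070. Counts are not corrected for length, so values are compared between libraries for each tRNA and not between tRNAs.

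ENSRNOG00000032112 drew from 427 to 3562 reads per library, the most of the 6 except in the shared library, 12 months sample 1 and 28 months sample 3, where ENSRNOG00000029389 drew more (682, 444 and 759). Its normalized counts were 388 and 326 in the 6-month libraries, 60.9 and 135 in the 12-month libraries, and 248, 110 and 84.1 in 28 months samples 1, 2 and 3. The 6-month libraries stood above all the others. The 2 libraries of 12 months differed 2.21-fold between themselves, and 28 months sample 1 was 2.24-fold above the next library of its age.

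ENSRNOG00000032609 had 128 and 138 normalized counts at 6 months, 24.95 and 51.4 at 12 months, and 95.6, 35.7 and 44.6 at 28 months. The order of the ages was the same as for the first tRNA. Its profile over the 8 libraries was the nearest of the 6 to their mean profile, with a root mean square difference of 0.0903 on the log2 scale.

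ENSRNOG00000029070 was at 139 and 126 normalized counts at 6 months, at 41.2 and 49.4 at 12 months, and at 94.5, 39.8 and 50.7 at 28 months. The 12-month libraries were closer to each other here, at 1.198-fold, and they lay inside the range of the 28-month libraries.

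ENSRNOG00000029677 had the fewest reads, from 54 to 338 per library. In 12 months sample 1 the 54 reads had an exact 95% Poisson interval of 40.6 to 70.5, which covers counting error only. Normalized counts were 30.1 and 38.7 at 6 months, 7.70 and 11.7 at 12 months, and 28.4, 9.12 and 9.26 at 28 months. The highest 28-month library nearly reached the lower 6-month library, which was 1.06-fold above it.

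ENSRNOG00000029145, the tRNA called known, varied the most. It was at 89.0 and 60.6 normalized counts at 6 months, at 9.70 and 37.4 at 12 months, and at 66.7, 10.9 and 18.8 at 28 months. Its highest library was 9.18-fold above its lowest. The 6-month and 28-month libraries overlapped, because 28 months sample 1 lay above 6 months sample 3.

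ENSRNOG00000029389 varied the least, with a 3.19-fold range. Normalized counts were 202 and 177 at 6 months, 63.3 and 68.3 at 12 months, and 98.8, 82.7 and 115 at 28 months. Without the shared library the 3 ages did not overlap, with 28 months between the others. The shared library, at 95.2, lay inside the 28-month range. Its 28-month libraries were the most alike of the 6 tRNAs (98.9 ± 16.3, SD, n = 3), and 28 months sample 1 was not the highest of them.

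The shared library held 41.5 normalized counts of ENSRNOG00000029070, 10.6 of ENSRNOG00000029145, 95.2 of ENSRNOG00000029389, 10.7 of ENSRNOG00000029677, 63.8 of ENSRNOG00000032112 and 31.7 of ENSRNOG00000032609. It lay below both 6-month libraries for 6 of 6 tRNAs, as it did for 38.1% of the 10968 identifiers with at least 20 reads on average. It lay between the 12-month libraries for 5 of 6, against 22.3% of those identifiers, the exception being ENSRNOG00000029389, for which it was above both. The 6 were listed for a difference between 6 and 12 months in these same files, and most of the other identifiers were not. These counts therefore depend on the choice and give the shared library no age.

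**Figure D1:**
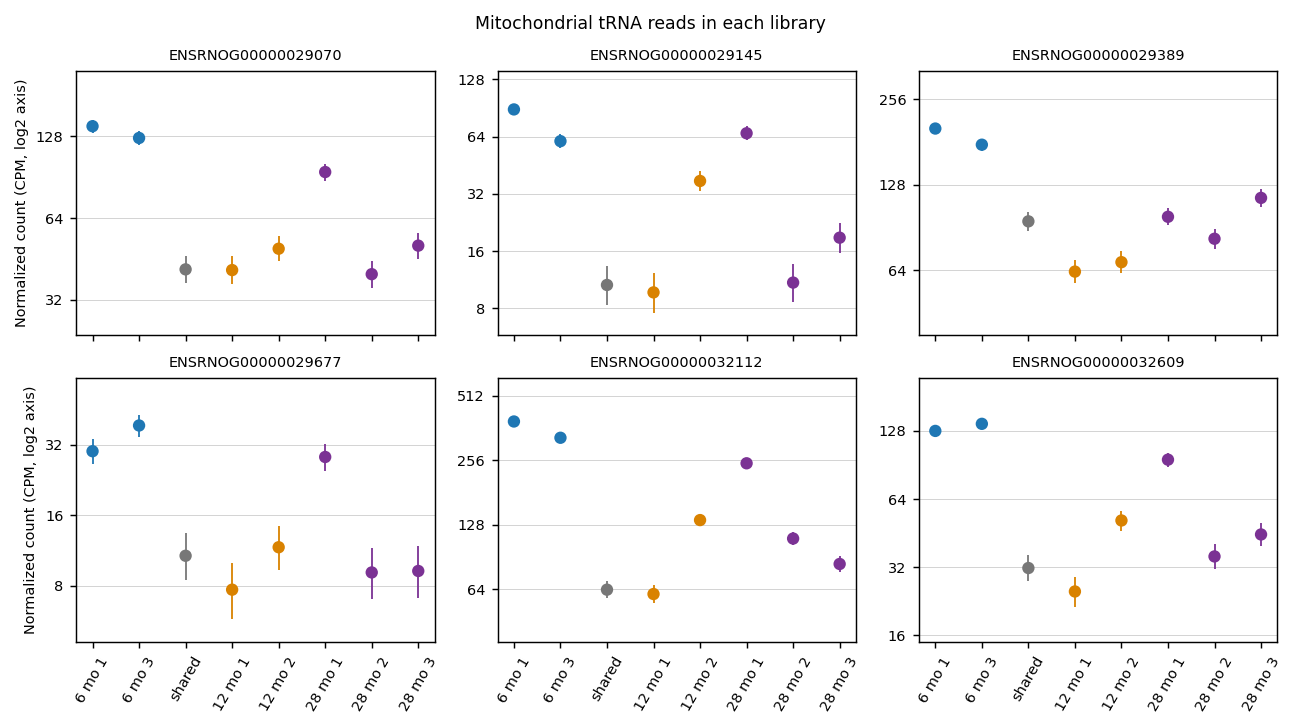
Normalized count (CPM after TMM scaling, log2 axis with its own range in each panel) of the 6 mitochondrial tRNAs in the 8 distinct libraries, colored by age, with the shared library in gray; vertical lines are 95% Poisson intervals of the reads. The 6-month libraries are highest in every panel except for ENSRNOG00000029145, where 28 months sample 1 lies between them.

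The comparison of 6 with 12 months is the one that chose these tRNAs, so it is given as a description. The log2 fold change with increasing age (log2FC) was -1.56 ± 0.16 for ENSRNOG00000029070, -1.67 ± 0.47 for ENSRNOG00000029145, -1.54 ± 0.15 for ENSRNOG00000029389, -1.83 ± 0.23 for ENSRNOG00000029677, -1.88 ± 0.31 for ENSRNOG00000032112 and -1.81 ± 0.28 for ENSRNOG00000032609 (each ± SE, 2 against 2 libraries). Each SE here and below was worked back from the F statistic of edgeR's quasi-likelihood test. It is the size of the log2FC divided by the square root of F. Leaving out 12 months sample 1 or sample 2 moved the value of ENSRNOG00000029145 to -1.02 or -2.95. The median of the 6 was -1.74, and that of all 15966 identifiers tested was -0.010. A false discovery rate (FDR) under 0.05 in edgeR's quasi-likelihood test was met by 5 of 6, beside 1.2% of all identifiers, and the one that missed it was ENSRNOG00000029145. Nothing is read from this count, because the same contrast made the list. With the shared library kept under both of its labels, 0 of 6 met it, where 0% of all 16113 identifiers did. Under edgeR's exact test on the files as labelled, 5 of 6 met it, beside 0.509% of all identifiers. The member just inside the threshold was ENSRNOG00000029389 (FDR 0.0382) and the one just outside was ENSRNOG00000029145 (FDR 0.152).

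The comparison of 6 with 28 months asks whether the tRNAs were also lower in the oldest rats. It reuses the 6-month libraries of the contrast that chose the list, and is therefore not independent of the choice. All 6 had lower mean values at 28 months, and 0 of 6 passed an FDR of 0.05 in edgeR's quasi-likelihood test, where 0.206% of 16042 identifiers did. The log2FC was -0.94 ± 0.18 for ENSRNOG00000029389 (FDR 0.0964), -1.10 ± 0.29 for ENSRNOG00000029070 (FDR 0.339), -1.28 ± 0.35 for ENSRNOG00000032112 (FDR 0.396), -1.18 ± 0.32 for ENSRNOG00000032609 (FDR 0.396), -1.13 ± 0.39 for ENSRNOG00000029677 (FDR 0.651) and -1.21 ± 0.53 for ENSRNOG00000029145 (FDR 0.751). The median was -1.15, and that of all identifiers was -0.0074. Unadjusted p was under 0.05 for 6 of 6, and for 6.45% of all identifiers. Both 6-month libraries lay above every 28-month library for 5 of 6, against 11.1% of the 10968 identifiers with at least 20 reads on average.

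The call at 6 against 28 months changed with the test and with 1 library. By edgeR's exact test, 4 of 6 were lower at an FDR under 0.05. Of all identifiers, 0.817% were called in either direction, and 92 of these 131 were lower. Without 28 months sample 1, the quasi-likelihood test called 5 of 6 lower, and their median log2FC moved to -1.80. It called 0.862% of all identifiers in either direction, and 119 of these 137 were lower. The tRNA not called there was ENSRNOG00000029389. Both tests partly borrow the spread behind their p-values from other identifiers. That spread is between pools of 2 rats, not between rats.

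Between 12 and 28 months the 6 tRNAs had higher mean values at 28 months, but 0 of 6 had an FDR under 0.05 in edgeR's quasi-likelihood test, where 0.12% of 15840 identifiers did. DESeq2 and edgeR's exact test also called 0, where they called 0.518% and 0.739% of all identifiers. This comparison reuses the 12-month libraries of the choosing contrast. The log2FC ran from 0.45 ± 0.29 for ENSRNOG00000029070 (edgeR FDR 0.746) to 0.70 ± 0.43 for ENSRNOG00000029677 (FDR 0.739), with a median of 0.60 against 0.0054 over all identifiers. The SE was smallest for ENSRNOG00000029389, whose log2FC was 0.60 ± 0.18 (FDR 0.368). It was the single tRNA with an unadjusted p under 0.05, as 7.68% of all identifiers had, and the single one with every 28-month library above both 12-month libraries, a pattern seen in 12.5% of the 10968 identifiers. The median log2FC of the 6 was 1.14 without 12 months sample 2 and 0.27 without 12 months sample 1. Without 28 months sample 1 it was 0.0084, and the differences of ENSRNOG00000029145 and ENSRNOG00000029677 had the opposite sign, at -0.66 and -0.066.

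**Figure D2:**
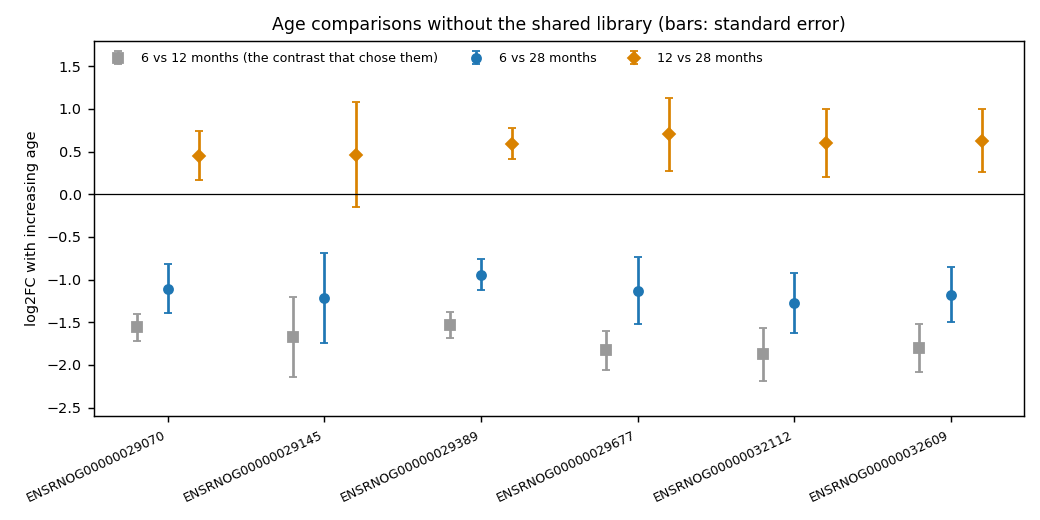
Log2FC with increasing age of each tRNA (points, with bars of 1 SE) in the 3 age comparisons, fitted without the shared library. Gray squares show the contrast that chose the tRNAs, with values from -1.88 to -1.54, blue circles 6 against 28 months, from -1.28 to -0.94, and orange diamonds 12 against 28 months, from 0.45 to 0.70.

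Within the 28-month group, sample 1 stood apart. It was more than 2-fold above both of the other libraries for 4 of 6 tRNAs, against 1.25% of the 10968 identifiers, by 3.54-fold over the next library for ENSRNOG00000029145, 3.07-fold for ENSRNOG00000029677, 2.24-fold for ENSRNOG00000032112 and 2.14-fold for ENSRNOG00000032609. For ENSRNOG00000029070 it was 1.86-fold above the next library, and for ENSRNOG00000029389 it was 0.858 of the highest. Within 12 months, sample 2 was more than 1.5-fold above sample 1 for 4 of 6, against 6.15% of identifiers, with the largest difference for ENSRNOG00000029145 at 3.86-fold. These 2 folds were set after the values were seen and carry no test. The SD of the log2 values over the 8 libraries was 0.60 to 1.32 for the 6 tRNAs, which were listed because they differed between some of these libraries.

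The library sums of the 6 tRNAs moved together with other properties of the libraries. The summed normalized count was 976 and 866 in the 6-month libraries and 632 in 28 months sample 1, and lay between 208 and 353 in the other 5. The same 3 libraries had the most reads on genes (9196951, 8700946 and 8648997, against at most 7310231 in the others) and the largest share of mapped reads left uncounted because they overlapped more than 1 gene (0.0750%, 0.0794% and 0.0707%, against 0.0356% to 0.0481%). Their part in the differences between ages was not tested. ENSRNOG00000043866 did not follow the tRNAs, with a log2FC of 0.13 ± 0.15, 0.05 ± 0.17 and -0.07 ± 0.19 in the 3 comparisons (edgeR FDR 0.764, 0.979 and 0.954).

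**Figure D3:**
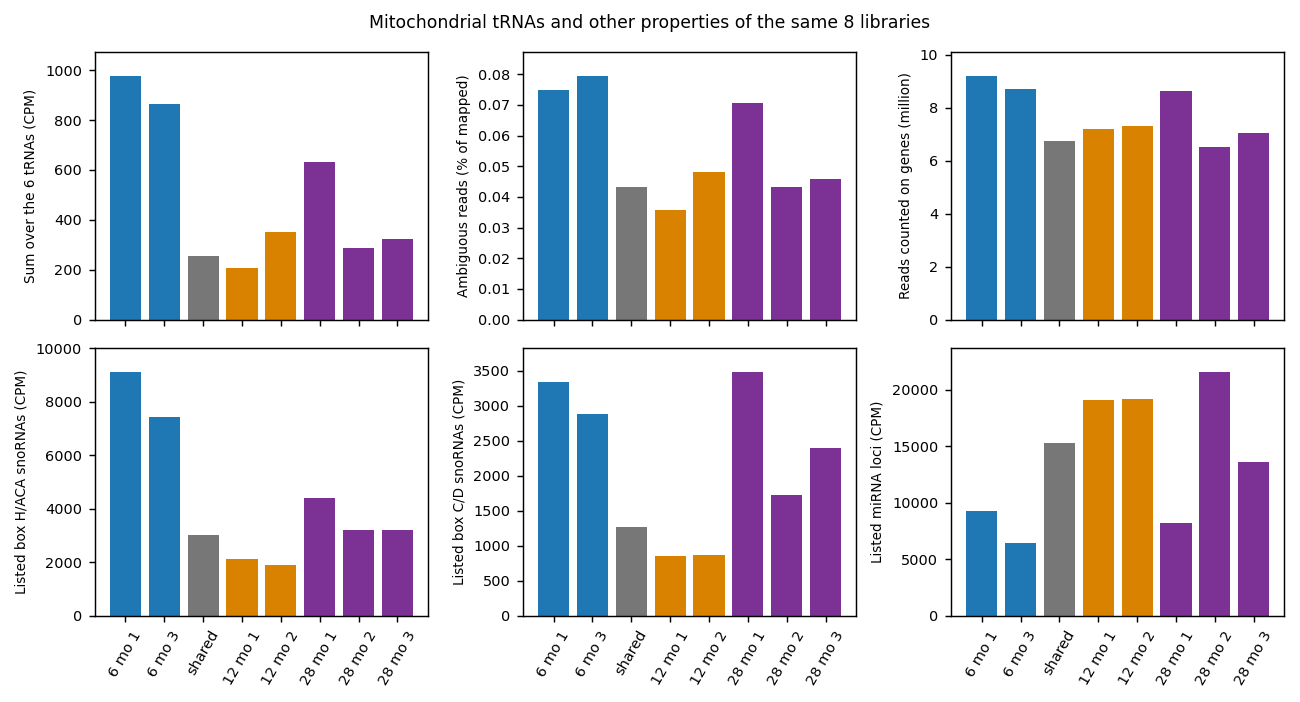
Summed normalized count of the 6 mitochondrial tRNAs, share of ambiguous reads, reads counted on genes, and summed normalized counts of the listed box H/ACA snoRNAs, box C/D snoRNAs and miRNA loci (bars from 0) in the 8 distinct libraries. The miRNA loci are those listed under that name alone. The 3 libraries with the highest tRNA sums, 976, 866 and 632, also have the most gene reads and the largest ambiguous shares.

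The mix of reads among the 6 tRNAs was not constant. Shares of the reads of the 6 do not depend on how a library was scaled, and their 95% Wilson intervals cover counting error only. ENSRNOG00000029389 gave 20.7% (19.9% to 21.6%) and 20.5% (19.6% to 21.4%) of these reads in the 6-month libraries, and 30.5% (28.2% to 32.9%) and 19.4% (17.9% to 20.9%) in the 12-month libraries. At 28 months it gave 15.6% (14.7% to 16.7%), 28.6% (26.7% to 30.6%) and 35.7% (33.7% to 37.8%). Its share was thus lowest in 28 months sample 1 and, at 37.6% (35.4% to 39.8%), highest in the shared library. Libraries of 1 age differed by more than their intervals, at both 12 and 28 months.

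ENSRNOG00000029145 gave 9.11% and 6.996% at 6 months, 4.67% and 10.6% at 12 months, 10.6%, 3.78% and 5.83% at 28 months, and 4.19% in the shared library. Its 2 highest shares were in 12 months sample 2 and 28 months sample 1. The 4 libraries in which it gave the smallest shares were those in which ENSRNOG00000029389 gave the largest, although shares of 1 total are not independent of each other. Relative to the mean of the other 5, the SD over the 8 libraries was 0.63 on the log2 scale for both of these tRNAs, against 0.12 for ENSRNOG00000032609 and 0.24 to 0.31 for the others.

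ENSRNOG00000032112 gave 37.6% to 39.7% in the 6-month libraries, 12 months sample 2, and 28 months samples 1 and 2. It gave 29.3% in 12 months sample 1, 26.1% in 28 months sample 3 and 25.2% in the shared library. In percentage points the other 3 stayed in narrower ranges, with 13.8% to 19.8% for ENSRNOG00000029070, 12.0% to 15.9% for ENSRNOG00000032609 and 2.87% to 4.50% for ENSRNOG00000029677. Relative to the mean of the other 5, the log2 SD of ENSRNOG00000029677 was 0.27, near the 0.31 of ENSRNOG00000032112.

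**Figure D4:**
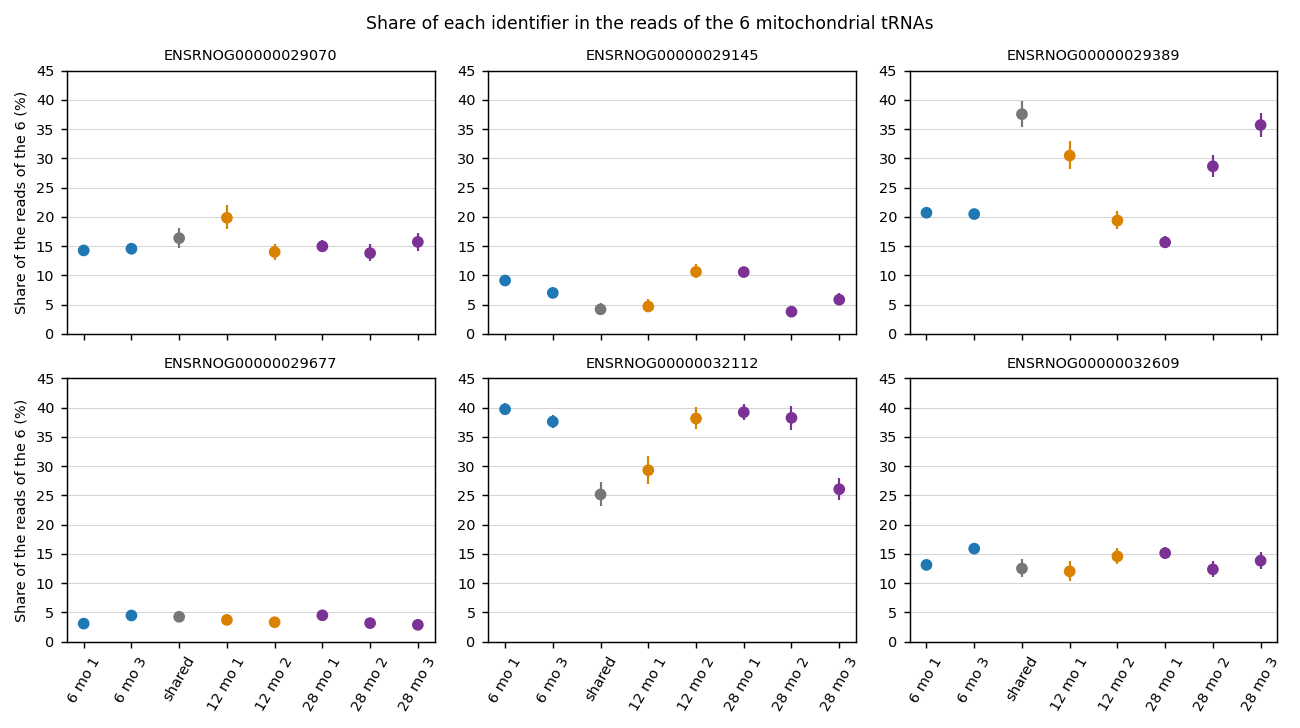
Share of each tRNA in the reads of the 6 (percent, axes from 0) in the 8 distinct libraries, with 95% Wilson intervals as vertical lines. ENSRNOG00000029389 ranges from 15.6% to 37.6% and is lowest where ENSRNOG00000029145 is near its highest.

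Among the identifiers that were not members, those with the nearest profile over the 8 libraries were ENSRNOG00000034738 and ENSRNOG00000035317, at a root mean square difference of 0.300 and 0.340 from the mean profile of the 6, where the median of all 10968 was 0.868. These, like the next 3, had no name in the lists used. ENSRNOG00000029145 and ENSRNOG00000029389 themselves were at 0.491 each, farther than those 5. Of the 50 nearest, 38 had no name, 5 were listed box H/ACA snoRNAs, 3 box C/D snoRNAs, 3 U or vault RNAs and 1 a Cajal body RNA. All 10968 held 10846 with no name, 32 box H/ACA snoRNAs, 15 box C/D snoRNAs, 7 U or vault RNAs and 3 Cajal body RNAs. Names came only from the study's lists of differentially expressed genes and transcripts, so every named RNA was picked on these samples. The counts by class are therefore no comparison of RNA classes. The points share their libraries and scaling, and no test was made.

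**Figure D5:**
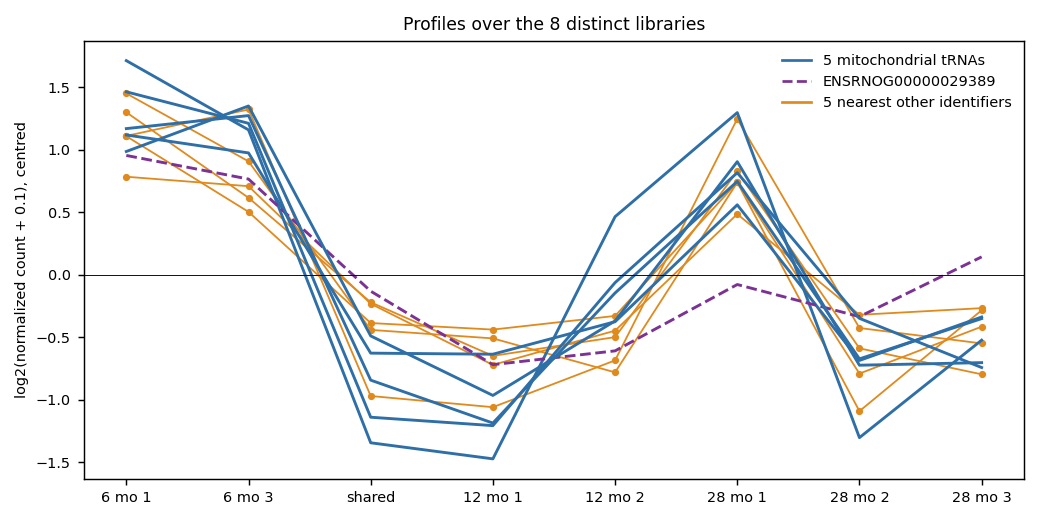
Centered log2 normalized count (plus 0.1) over the 8 distinct libraries for 5 of the mitochondrial tRNAs (blue), ENSRNOG00000029389 (dashed purple) and the 5 identifiers with the nearest profile (orange); lines only join the values of 1 identifier. The blue lines peak at 6 months and again in 28 months sample 1, while the dashed line is highest among the 28-month libraries in sample 3.

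Other small RNAs named in the same lists were also picked for differences between these samples, so they are no independent evidence. Of 33 box H/ACA snoRNAs, which guide pseudouridylation of RNA, 25 were called lower at 12 than at 6 months (median log2FC -2.14), 5 were lower at 28 than at 6 months (-1.28) and 1 was higher at 28 than at 12 months (0.96). Box C/D snoRNAs, here 15 classed by name, are a class in which many guide ribose methylation. Of these 15, 8 were lower at 12 months (-1.61), 0 were called between 6 and 28 months (-0.34) and 3 were higher at 28 than at 12 months (1.01). For the 6 tRNAs the medians in the same order were -1.74, -1.15 and 0.60, and over all identifiers tested -0.010, -0.0074 and 0.0054. Of all identifiers, 1.2%, 0.206% and 0.12% were called in these comparisons, in either direction.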

How the data were processed

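The authors mapped the reads with Bowtie to the rat genome (RGSC 3.4, the build called rn4 in the submitters' processing notes) and counted them per gene of Ensembl release 65 with HTSeq. The deposited values are raw counts, 1 file per library. Strand and overlap settings, and tool versions, are not given in the sources used here. The last 5 lines of each file, which hold reads not counted on a gene, were left out of library sizes and tests. The line for reads that overlapped no gene held 47.5% to 60.0% of mapped reads. Mapped reads are here those on 1 gene, on no gene and on more than 1 gene.

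Age groups came from the labels. Ages were compared in pairs with edgeR 4.0.16 (R 4.3.3): TMM scaling, at least 5 reads in at least 1 library compared, the quasi-likelihood test and Benjamini-Hochberg FDR over all identifiers tested. The library deposited under both ages was left out. Alternatives were its inclusion, the exact test, DESeq2 1.42.0, other scalings and filters, 1 fit over all libraries, and leaving out each library. Scripts were tested on simulated data.

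The members and lists were chosen with earlier results of these data known. Named were the 6 tRNAs, the identifier with the most reads, and the 5 nearest profiles, of which 2 unnamed ones are printed. Names came from 134 identifiers in the study's supplementary lists; the RefSeq table given paired 0 identifiers, so tRNA sequences and a list of mitochondrial RNA processing genes were not used here.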

Additional observations from a re-analysis of the deposited data

How the results depend on the processing

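Between 6 and 12 months, 5 of the 6 tRNAs were called without the shared library and 5 with it at 12 months only (0.676% of all identifiers called). With all 9 files as labelled 0 were called (0% of all), and with that library at 6 months only also 0 (0.118%). The count was 3 with a filter of at least 1 read in any library (0.543%) and 2 in 1 fit over 7 libraries (0.97%). Between 6 and 28 months, where 0 were called, the exact test called 4 (0.817%), DESeq2 called 1 (0.436%), the filter of at least 1 read called 6 (0.954%) and 1 fit over 7 libraries called 1 (0.209%). Leaving out each library gave 0 to 5 calls there and a median log2FC of -1.80 to -0.85, with 5 calls and -1.80 without 28 months sample 1 (0.862%) and 0 calls when any 1 of the other 4 was left out, where 0% to 0.572% of all identifiers were called. Where this left 1 library at an age, that library was assumed to vary like those of the other age. Between 12 and 28 months no alternative called a tRNA, and leaving out each library gave a median log2FC from 0.0084 to 1.14 (0% to 0.907% of all called). It moved the log2FC of ENSRNOG00000029145 from -0.66 to 1.74 and that of ENSRNOG00000029677 from -0.066 to 1.03, and the former was also negative, at -0.20, without 12 months sample 1. Between 6 and 12 months it gave a median of -2.29 to -1.43. The cause was not tested. No other direction turned in the alternatives run. No paired analysis was possible because the labels give no replicate numbers that the ages share: the sample numbers used here follow the order of deposit within an age and only name the libraries.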

Other observations

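Smaller lists, also picked on these samples, were measured in the same fits. In either direction, those fits called 1.2% of all identifiers between 6 and 12 months. They called 0.206% between 6 and 28 months and 0.12% between 12 and 28 months. All 3 listed Cajal body RNAs, which guide modification of spliceosomal RNAs, were called lower at 12 than at 6 months (median log2FC -3.48), 1 was lower at 28 than at 6 months (-1.76), and 0 were called between 12 and 28 months (1.72). Of 7 U and vault RNAs, 2 were lower at 12 than at 6 months (-1.11) and 0 were called in the other comparisons (-0.89 and 0.33). The lists name 4 loci only as miRNA, and microRNAs listed under longer names were not included with them. Those 4 loci went the opposite way between 6 and 12 months, with 3 called higher (1.15). Between 6 and 28 months (0.98) and between 12 and 28 months (0.0044), 0 of them were called. Their summed normalized count was 9245, 6477 and 8195 in 6 months samples 1 and 3 and 28 months sample 1, the libraries with the highest tRNA sums, and 13642 to 21580 in the other 5.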
